A study of Mus musculus with 4 samples.

Results

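The 10 genes described here are genes that cells are known to raise when oxygen is low and that lie outside the glycolytic pathway, namely Hif1a, Bnip3, Bnip3l, Adm, Egln1, Egln3, Car9, P4ha1, Ero1l and Ndrg1. They were chosen by name as parts of this response, and they make up 10 of the 14791 genes that could be named on the arrays and 12 of the 33012 probes. RNA of 4 cultured mouse melanoma lines was compared, with 1 array analysed for each line. B16 is the parental line (B16F1, from the C57BL6 strain), B16-RI was grown from lymph node metastases that formed after B16F1 had been placed into the back skin of C57BL6 mice and the tumour taken out on day 14 to 17, and B16-RI cells put through mice again gave B16-RII from lymph nodes and B16-RIIL from lung. All of them were grown in medium with 20% serum for up to 10 passages with no treatment or change in oxygen stated, so the comparison asks which of these genes differed between the parental and the passaged lines in ordinary culture. Each line is a single population that shares B16F1 as its origin, the RNA of a line was pooled from different passage numbers, and B16-RII and B16-RIIL both descend from B16-RI. Differences between lines have no replicate check here, and those from B16 share the same B16 array.

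When oxygen falls, the α subunits of the hypoxia-inducible factors (HIF) are no longer hydroxylated by the Egln prolyl hydroxylases, escape recognition by the von Hippel-Lindau protein and switch on genes that carry a hypoxia response element. Hif1a itself is controlled largely through the stability of its protein, which an RNA array does not measure. The targets include enzymes of acid-base balance, collagen and protein folding, mitophagy receptors, a vasoactive peptide and the Egln enzymes themselves, which act back on the pathway.

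A probe was called detected on an array when its signal-to-noise ratio (S/N) was at least 3 and its flag at most 5000. A probe was called above or below when the log2 normalized signals of the compared lines differed by at least 1 unit, that is 2-fold, and the brighter array had detected it. On the 4 arrays 13872 to 14855 probes were detected, and 11604 on all of them. Taking B16 as the base, those 11604 probes had a median log2 difference of 0.21 on B16-RI, 0.41 on B16-RII and 0.22 on B16-RIIL. This shift was uneven between the probe sets that the authors had scaled separately. In the set that holds 10 of the 12 probes described here it was 0.07, 0.42 and -0.01, and in the set that holds Adm and Ero1l it was 0.39, 0.41 and 0.46. Values after the median of each set was subtracted (set-centred differences) are therefore given beside the deposited ones where they matter. Of the melanocyte markers 6 of 8 had a named probe and each was detected on every array, among them the pigment enzymes Dct and Tyrp1, and none was called above or below B16. Of 22 markers of lymphocytes, macrophages, fibroblasts, endothelium and lung epithelium, 12 were detected on no array, among them Ptprc, Cdh5, Pdgfra and Sftpc. On any given line 4 to 8 were detected. On each passaged line 1 of the lymphocyte and 1 of the lung epithelium markers were called below B16. Of the fibroblast markers 1 was called above and 1 below on B16-RI, and 1 above on B16-RIIL. An endothelial marker was called above on B16-RII. The summed signal of these 22 markers lay between 86.1 and 111 on the 4 lines, most of it from Cd79a, against 6395 to 7874 for the 6 melanocyte markers, and the part of other cells in the differences was not tested. In such bulk RNA, fewer cells with a transcript and less transcript per cell cannot be told apart.

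The sequences before the start of 3 of these genes are shown first, since Car9 had the largest difference of the genes detected throughout, and Bnip3 and P4ha1 shared a low point on B16-RI. Each is the 250 bases before the start in the RefSeq promoter table of build GRCm38.p6, with the core letters of the hypoxia response element in capitals, as ACGTG or GCGTG on the strand of the gene, as CACGT or CACGC where the core reads on the other strand, or as CACGTG where cores on both strands overlap. The windows are chr4:43506776-43507025 on the plus strand for Car9, chr7:138909507-138909756 on the minus strand for Bnip3 and chr10:59323046-59323295 on the plus strand for P4ha1.
Car9: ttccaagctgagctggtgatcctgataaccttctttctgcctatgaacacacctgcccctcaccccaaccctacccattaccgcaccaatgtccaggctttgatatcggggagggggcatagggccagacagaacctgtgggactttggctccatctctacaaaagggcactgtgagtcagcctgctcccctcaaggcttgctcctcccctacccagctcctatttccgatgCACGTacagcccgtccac
Bnip3: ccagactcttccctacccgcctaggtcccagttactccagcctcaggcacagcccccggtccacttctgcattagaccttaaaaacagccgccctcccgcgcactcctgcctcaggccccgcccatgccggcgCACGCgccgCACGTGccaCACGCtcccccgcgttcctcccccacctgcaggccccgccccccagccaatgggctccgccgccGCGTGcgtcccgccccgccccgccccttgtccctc
P4ha1: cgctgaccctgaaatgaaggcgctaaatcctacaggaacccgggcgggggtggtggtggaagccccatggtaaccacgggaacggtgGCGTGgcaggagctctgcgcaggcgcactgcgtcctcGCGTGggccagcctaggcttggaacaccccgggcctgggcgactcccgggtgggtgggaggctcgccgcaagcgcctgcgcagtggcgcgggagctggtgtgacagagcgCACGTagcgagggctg
The table held 8 of the 10 genes, all but Bnip3l and Ndrg1. Each of these 8 windows held at least 1 core, 7 held ACGTG and 5 held GCGTG, and 6 held 2 or more matches. Of all 32851 promoters cut to the same length, 38.6% held either core, 16.6% held ACGTG, 28.2% held GCGTG and 16.7% held 2 or more. Bnip3 had the most matches, with 5, of which the ACGTG pair lay 108 and 107 bases before the start on opposite strands. Car9 had a single match, 18 bases before the start and on the other strand, and the only match of Egln3 lay 229 bases before the start. A match is a string of letters and does not show that a factor binds there.

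**Figure D1:**
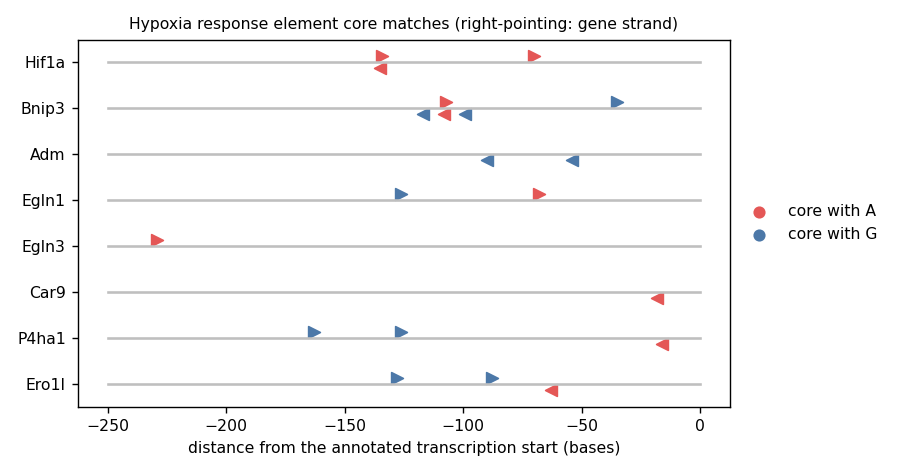
Places of the hypoxia response element cores in the 250 bases before the annotated start of the 8 genes with a promoter sequence. The x axis is the distance from the start in bases, triangles pointing right are on the strand of the gene and triangles pointing left on the other strand, and colours separate the core with A first from the core with G first. Bnip3 carries 5 matches and Car9 and Egln3 carry 1 each.

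Among the 12 probes, 10 were detected on all 4 arrays and each on at least 1. The shares of all probes below are taken over 33012 probes, of which 18678 were detected on at least 1 array. On B16-RI 1 probe was called above B16, the dimmer probe of Bnip3l, where 4.95% of all probes were called above, and 4 were called below, both probes of Bnip3 and those of Egln3 and P4ha1, where 4.55% of all probes were called below. On B16-RII 2 probes were called above B16, those of Car9 and again the dimmer probe of Bnip3l, against 6.51% of all probes, and 1 was called below, that of Egln3, against 3.79%. B16-RIIL gave the same genes, 2 above against 6.42% of all probes and 1 below against 4.25%. By the brightest probe of each gene, none was called above and 3 were called below on B16-RI, and 1 was called above and 1 below on each of the other lines.

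**Figure D2:**
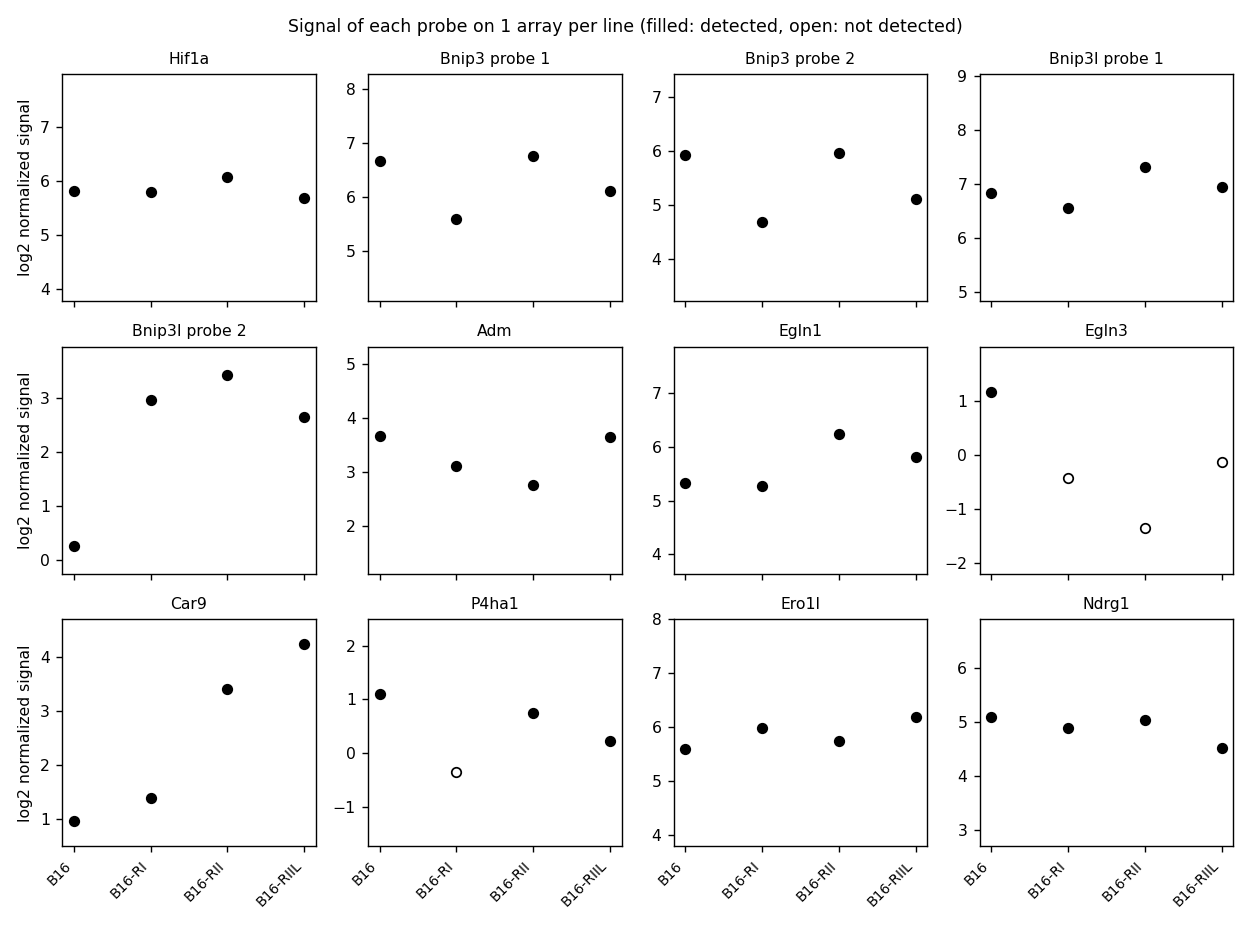
Log2 of the normalized signal (y axis) of every probe of the 10 genes on the arrays of B16, B16-RI, B16-RII and B16-RIIL (x axis), 1 array per line. Each panel spans the same number of log2 units, filled points were detected and open points were not, and probes of a gene are numbered from the brighter one. Car9 is dim on B16 and B16-RI and brighter on B16-RII and B16-RIIL, both Bnip3 probes and P4ha1 are lowest on B16-RI, and Egln3 is detected on B16 alone.

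Hif1a, the oxygen-regulated subunit of the factor, had normalized signals of 55.9 (B16), 55.3 (B16-RI), 67.4 (B16-RII) and 51.2 (B16-RIIL). The lines lay close together, within 0.40 log2 units in all. The differences from B16 were -0.02, 0.27 and -0.13 log2 units, and that of B16-RII was -0.42 after quantile normalization and -0.16 set-centred, so its sign depended on the scaling.

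Of the prolyl hydroxylases, Egln1 (PHD2), the main oxygen sensor that marks HIF-α for destruction, had signals of 40.0, 38.6, 74.7 and 56.1 on B16, B16-RI, B16-RII and B16-RIIL. Its values on B16 and B16-RI were nearly the same, and both lines of the second round were brighter. As deposited, B16-RIIL lay 0.41 log2 units under B16-RII, a gap that was gone after set centring and quantile normalization. The difference of B16-RII from B16 was 0.90 log2 units, 0.48 set-centred and 0.22 after quantile normalization, and it was not called. Egln3 (PHD3), a hydroxylase that is itself strongly raised by HIF in many cells, had signals of 2.22, 0.74, 0.39 and 0.91. It was detected on B16 alone, and there only just, at an S/N of 3.21. It was called below B16 on each passaged line, 3-fold lower on B16-RI, 5.69-fold on B16-RII and 2.44-fold on B16-RIIL. An undetected signal was taken at its own value or, where higher, at the lowest signal detected on the array. Such a ratio is not a bound on the difference. With an S/N of at least 5 required on the brighter array, none of these calls was made.

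Bnip3 and Bnip3l encode related receptors of the outer mitochondrial membrane that call mitochondria to autophagy. The brighter probe of Bnip3 had signals of 103 (B16), 48.6 (B16-RI), 109 (B16-RII) and 69.2 (B16-RIIL). The second probe had signals of 60.9, 25.8, 62.3 and 34.5 in the same order. Both probes gave the same picture, with B16-RI lowest, B16-RIIL next and B16 and B16-RII higher. The brighter probe was 2.11-fold and the second 2.36-fold lower on B16-RI than on B16, and these log2 differences, -1.08 and -1.24, were lower than all but 1.84% and 1.10% of the probes of their set that were detected on both arrays. On B16-RIIL the log2 differences from B16 were -0.57 and -0.82 and were not called. The second probe passed the limit after quantile normalization (-1.16) and 75th percentile scaling (-1.05). The whole probe set of Bnip3 then had a median of -0.27 and -0.24 from B16. Set-centred, the differences of the probes on B16-RIIL were -0.58 and -0.83 and not called. On B16-RII they were 0.08 and 0.03 in the deposited values and negative under each of the 4 other scalings, down to -0.60 and -0.67 after quantile normalization.

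The probes of Bnip3l did not give the same picture as each other. The brighter probe had signals of 114, 94.0, 159 and 123 on B16, B16-RI, B16-RII and B16-RIIL, with log2 differences from B16 of -0.28, 0.48 and 0.10. It was lowest on B16-RI, as both Bnip3 probes were, but over a narrower range of 0.76 log2 units. It was highest on B16-RII as deposited, not after quantile normalization or set-centred, and its sign on B16-RII and B16-RIIL turned negative after quantile normalization. The dimmer probe had signals of 1.20, 7.80, 10.7 and 6.27, which put the passaged lines 6.50-fold, 8.93-fold and 5.22-fold above B16. It was low on B16, at an S/N of 5.24 and a flag of 64, and higher on the other 3 arrays. Over the 288 genes with a pair of probes in the same set, the log2 differences from B16 of the probes lay a median of 0.19, 0.28 and 0.31 apart on B16-RI, B16-RII and B16-RIIL, and 90% lay within 0.71, 0.80 and 0.74. The Bnip3l probes lay further apart than that on every line, so the 3 calls of the dimmer probe hold for that probe and not for the gene. The other genes of this process are listed as the Bnip3 family and mitophagy, 11 genes with Pink1, Becn1 and the LC3 and Gabarap proteins among them. None was called above or below B16 on B16-RI, 2 were called above on B16-RII, among them Gabarap, which was undetected on B16, and 1 on B16-RIIL, and none was called below. The call on B16-RIIL was that of the brighter probe of Map1lc3b, whose log2 difference of 1.22 fell under the limit after quantile normalization (0.99) and set-centred (0.70).

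Car9, the carbonic anhydrase IX that sits in the cell membrane and acidifies the space outside the cell, had signals of 1.93 (B16), 2.62 (B16-RI), 10.6 (B16-RII) and 18.7 (B16-RIIL). It was detected on every array, at an S/N of 5.79, 5.66, 29.5 and 34.9, and was dim on B16 and B16-RI and clearly brighter on both lines of the second round. The signal was 1.36-fold above B16 on B16-RI, which was not called, 5.47-fold on B16-RII and 9.70-fold on B16-RIIL. The log2 differences were 0.44, 2.45 and 3.28, and 0.44, 2.03 and 3.27 set-centred. Among the probes of its set detected on both arrays, the difference lay at percentile 87.2 on B16-RI, 99.8 on B16-RII and 99.98 on B16-RIIL. Against B16-RI, Car9 was 4.03-fold higher on B16-RII and 7.15-fold higher on B16-RIIL. The lung line was 1.78-fold above the lymph node line of the same round, a log2 difference of 0.83 that was 1.10 after quantile normalization and 1.25 set-centred, past the limit under each of the 4 other scalings.

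Car9 was also the only 1 of the 12 probes whose signal was higher at each place in the order B16, B16-RI, B16-RII and B16-RIIL with a difference of at least 1 log2 unit over the whole order. The same rule was met by 661 of all probes, which is 2% of them, and no probe was lower at each place, where 0.921% of all probes met the mirrored rule. Its B16 and B16-RI signals lie within 0.5 log2 units and were not separated. The other carbonic anhydrases did not share this pattern. Of 12 with a probe among 15 listed, 2 were called above B16 on B16-RI (Car12 and Car5b), 1 on B16-RII (Car6, not called after quantile normalization or 75th percentile scaling) and 1 on B16-RIIL (Car12), while Car5a was called below on B16-RII and B16-RIIL. Car12, the other membrane-bound form linked to tumours and to hypoxia, had signals of 1.06, 2.31, 1.41 and 2.46 and was detected on B16-RI and B16-RIIL only, where its log2 differences were 0.73 and 0.69 set-centred and not called. Car14, another membrane-bound form, was bright on every line, with signals of 222, 239, 323 and 178.

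**Figure D3:**
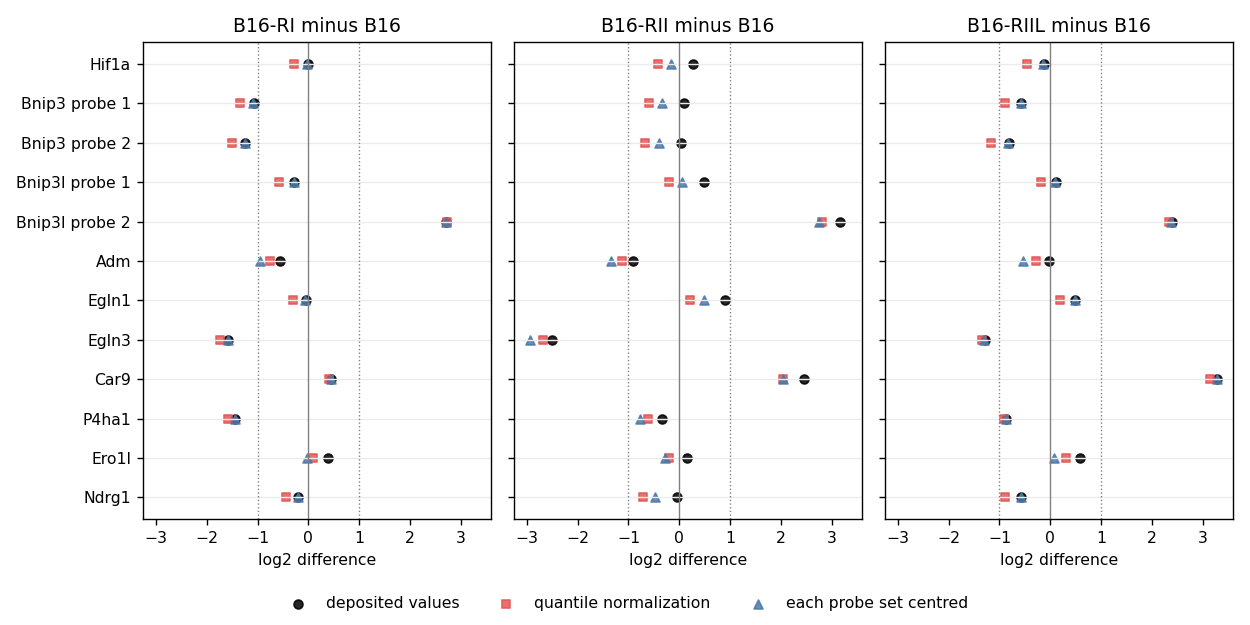
Log2 difference of each passaged line from B16 (x axis) for every probe of the 10 genes (y axis), with the deposited values, after quantile normalization and set-centred. Dotted lines mark 1 log2 unit in either direction, and 1 array per line gives no error. The Car9 differences on B16-RII and B16-RIIL, at 2.45 and 3.28 in the deposited values, stay past the dotted line under the 3 scalings drawn, while those of Hif1a, Bnip3, the brighter Bnip3l probe and Ero1l on B16-RII change sign.

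P4ha1, a catalytic subunit of the enzyme that hydroxylates collagen prolines, had signals of 2.15 (B16), 0.79 (B16-RI), 1.69 (B16-RII) and 1.18 (B16-RIIL). It was not detected on B16-RI, where its undetected signal was 2.72-fold lower than on B16, a ratio that is not a bound. It was dim on the other 3 arrays, with an S/N of 3.12 on B16-RIIL. On B16-RII and B16-RIIL the log2 differences from B16 were -0.35 and -0.87, neither of them called. That of B16-RIIL was -1.09 after 75th percentile scaling and -0.87 set-centred. The other collagen-modifying enzymes were mostly detected throughout. Of 9 listed, P3h2 was called below and P4ha3 above B16 on B16-RI, none was called on B16-RII, and Plod2, which hydroxylates collagen lysines and is another HIF target, was called above on B16-RIIL with signals of 46.8, 62.2, 67.7 and 104. That log2 difference of 1.15 was 0.63 set-centred and was then not called, nor was it after quantile normalization or 75th percentile scaling. The sister subunit P4ha2 had signals of 63.6, 89.4, 72.7 and 71.7 and was not called on any line.

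Adm, the vasoactive peptide adrenomedullin, had signals of 12.8 (B16), 8.68 (B16-RI), 6.81 (B16-RII) and 12.5 (B16-RIIL). It was lower on both lymph node lines than on B16 and on the lung line. Its log2 differences from B16 were -0.56, -0.91 and -0.03, none of them called, but its probe set was shifted upwards on each passaged line and the set-centred differences were -0.95, -1.33 and -0.55, of which that of B16-RII passed the limit, as it did after quantile normalization (-1.14) and 75th percentile scaling (-1.09). On B16-RIIL the difference was 0.02 after median scaling. The difference lay at percentile 3.48, 1.31 and 14.2 of its set. Of the 7 other genes of the adrenomedullin system, 3 were detected on at least 1 line. Pam, which amidates the peptide, had signals of 12.0, 21.2, 38.5 and 34.7 and was called above B16 on B16-RII and B16-RIIL. Ramp2, a partner of its receptor, had signals of 6.96, 2.41, 4.22 and 6.90 and was called below on B16-RI, and Ramp3, another such partner, was called below on B16-RIIL, where it was not detected. The receptor Calcrl itself was detected on no array.

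Ero1l (now Ero1a), the oxidase that drives disulfide formation in the endoplasmic reticulum, had signals of 48.8, 63.4, 53.8 and 73.1 on B16, B16-RI, B16-RII and B16-RIIL. The log2 differences of 0.38, 0.14 and 0.58 were all positive as deposited, yet -0.02, -0.29 and 0.06 set-centred, so no direction held for B16-RI and B16-RII. Of 8 other enzymes of oxidative folding with a probe, Qsox1 was called above B16 on B16-RI and below it on B16-RIIL, and no other was called. The call of Qsox1 on B16-RI was lost after 75th percentile scaling. Ndrg1, a cytoplasmic protein of stress and differentiation that is widely used as a marker of hypoxia, had signals of 34.1, 29.8, 32.8 and 22.9. It was lowest on the lung line, with log2 differences from B16 of -0.20, -0.06 and -0.58, negative under every scaling run and in no case called. In the array annotation this probe carries the older name Ndrl beside Ndrg1. Its relatives Ndrg3 and Ndrg4 were not called on any line and Ndrg2 was called above B16 on B16-RII, where its signal was 2.90 against an undetected 1.08, a call that was lost set-centred and after 75th percentile scaling.

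**Figure D4:**
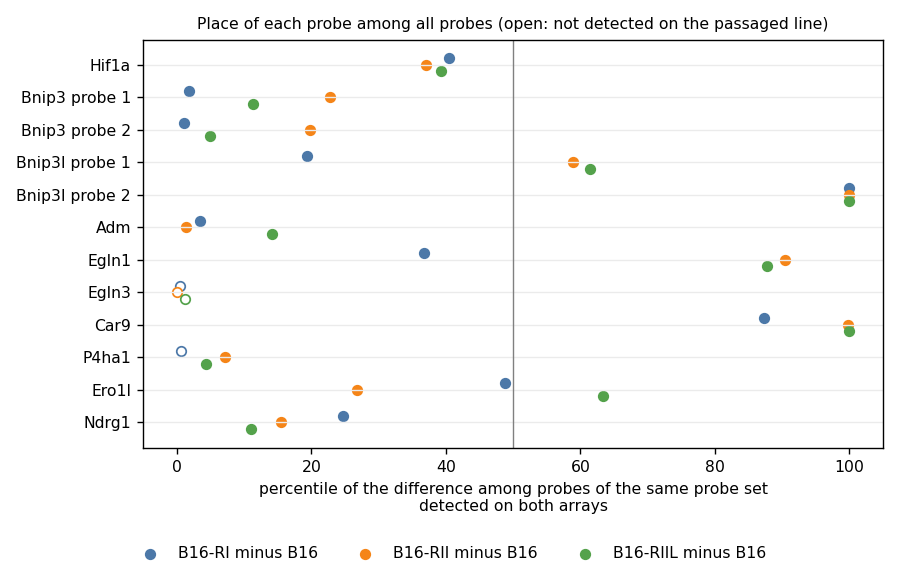
Percentile (x axis) of the difference from B16 of every probe of the 10 genes (y axis) among the probes of its own set that were detected on both arrays, for the 3 passaged lines. Open points were not detected on the passaged line, and the vertical line marks the middle of all probes. Car9 and the dimmer Bnip3l probe lie at the upper end, and Bnip3 on B16-RI, Egln3, P4ha1 and Adm lie towards the lower end.

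Between the passaged lines, 4 probes were called above B16-RI on B16-RII, both of Bnip3 and those of Car9 and P4ha1, where 4.93% of all probes were called above, and none was called below, where 3.27% of all were. The probe set that holds them was shifted by 0.38 log2 units between these arrays, and set-centred or after quantile normalization Car9 alone was called. Bnip3 was 2.24-fold and 2.41-fold higher on B16-RII than on B16-RI by its brighter and second probe, and 0.74 and 0.85 log2 units higher set-centred. P4ha1 was 2.14-fold higher, as a ratio to its undetected signal on B16-RI. On B16-RIIL Car9 was the 1 probe above B16-RI, against 5.43% of all probes, and none was below, against 4.07%. Between B16-RIIL and B16-RII no probe was called either way, where 3.85% of all probes were above and 4.73% below. In all, 5 of the 12 probes were lowest on B16-RI and none was highest there, where 20.9% of the 18678 probes detected on at least 1 array were lowest and 19.7% highest. These were Bnip3 by both probes, the brighter probe of Bnip3l, Egln1 and P4ha1, and Egln1 lay only 0.05 log2 units below B16.

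With 1 probe per gene, the brightest, the genes detected on both arrays had a median log2 difference from B16 of -0.13 on B16-RI (8 genes), 0.14 on B16-RII (9 genes) and -0.03 on B16-RIIL (9 genes). Over all genes the median was 0.22, 0.44 and 0.25. The median of these genes thus lay below that of all genes by 0.34, 0.30 and 0.28 log2 units, and by 0.16, 0.30 and 0.13 set-centred. The glycolytic hypoxia targets, of which 14 to 15 were detected on both arrays, had medians of 0.03, 0.37 and -0.12. Their differences from the medians of all genes were -0.18, -0.07 and -0.37 log2 units, and -0.31, -0.07 and -0.37 set-centred. Of 30 other hypoxia targets with a probe, 14 to 16 were detected on both arrays and had medians of 0.23, 0.40 and 0.25. These differed from the medians of all genes by 0.01, -0.04 and -0.01 log2 units as deposited, and by -0.16, -0.04 and -0.15 set-centred. Among them 1, 5 and 4 genes were called above B16 on B16-RI, B16-RII and B16-RIIL, against 4.95%, 6.51% and 6.42% of all probes. Called below were 3, 3 and 1 of them, against 4.55%, 3.79% and 4.25% of all probes. Set-centred, these counts were 0, 3 and 1 above and 3, 3 and 2 below.

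Vegfa, the endothelial growth factor that is a classical target of HIF, was among those below. Its brighter probe had signals of 8.60 (B16), 2.39 (B16-RI), 3.46 (B16-RII) and 5.59 (B16-RIIL), and its second probe 4.53, 2.29, 1.82 and 2.47. Ddit4, a stress-induced inhibitor of mTOR, had signals of 14.9, 2.34, 2.93 and 11.6 and was not detected on B16-RI and B16-RII, so that like Adm it was lower on both lymph node lines than on B16 and B16-RIIL. Loxl2, which crosslinks collagen, was detected on B16 alone by its brighter probe, at 4.43. Those above B16 on B16-RII were Igfbp3, Mxi1, Rora, Tfrc and Wsb1, of which 3 stayed called set-centred. Of the 4 on B16-RIIL, 3 were no longer called set-centred, Car12, Hmox1 and Plod2. The transferrin receptor Tfrc had signals of 5.48, 10.8, 19.1 and 9.17, and the haem oxygenase Hmox1 of 73.9, 102, 104 and 172.

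Of the HIF machinery, 13 of 15 genes had a probe and 12 were detected on at least 1 line. Cited2, which competes with HIF-1α for its coactivators, was called above B16 on each passaged line, with signals of 34.7, 73.2, 129.6 and 88.9. Its log2 difference on B16-RI, 1.08, was 0.81 after quantile normalization and 0.94 after 75th percentile scaling, and was then not called. Hif1an (FIH), the asparaginyl hydroxylase that blocks the same coactivator contact, was called below on each, with dim signals of 2.90, 1.38, 1.42 and an undetected 1.05. Egln2 (PHD1), the relative of Egln1 and Egln3, was called above on B16-RII alone, with signals of 64.5, 102, 135 and 88.2. It was not called there under any of the 4 other scalings. Arnt2 was called above on B16-RI, the only array on which it was detected. The partner subunit Arnt, the von Hippel-Lindau gene Vhl and Epas1, which encodes HIF-2α, were not called on any line.

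**Figure D5:**
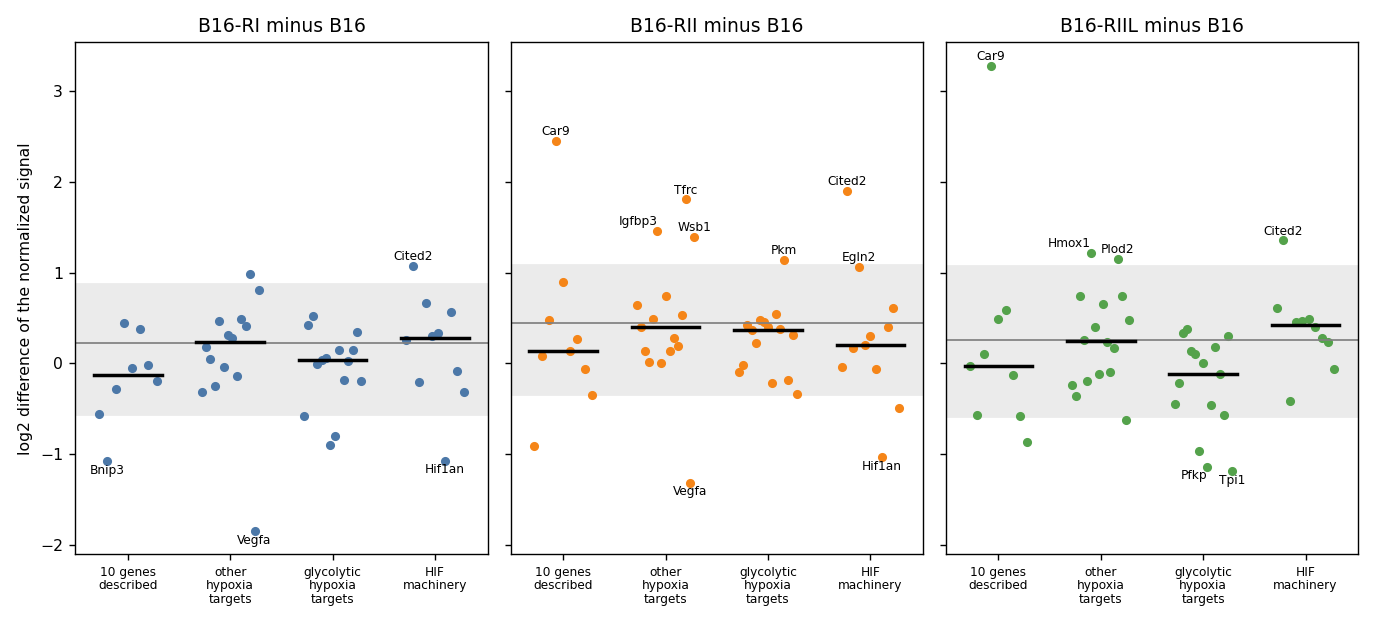
Log2 difference of the normalized signal from B16 (y axis) for genes detected on both arrays, 1 point per gene by its brightest probe, in the 10 genes described and 3 related lists (x axis), for each passaged line. Black bars are list medians, the grey line is the median of all genes and the grey band spans their 5th to 95th percentile, and genes at least 1 log2 unit from 0 are named. Car9 on B16-RII and B16-RIIL stands above every other gene drawn.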

How the data were processed

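RNA of 4 lines was hybridized to mouse arrays of Applied Biosystems, with 1 sample per line in the labels, although the methods describe duplicates. The authors deposited a raw and a normalized intensity for each probe, the normalized intensity being the raw signal divided by 1 of 2 constants per array, for sets of 16524 and 16488 probes, and not quantile normalized as the methods state. The deposited S/N and flag columns are scores of the analyzer. A further 30 columns belong to second arrays, fit none of the labelled samples and were left out, as were 14 columns of log2 values and ratios that the authors derived.

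Lines were compared on the log2 scale of the deposited normalized signal by size alone, without a test, since 1 array per line matched a sample of the labels. The number of arrays limits the precision. The 10 genes and all gene lists were chosen with earlier results of these data known. Named besides the 10 were list genes detected and at least 2-fold from B16 on some line, the 5 genes nearest to Car9 and, outside this rule and chosen after their values were seen, Pdk1, markers and list genes that were not called. Of 17302 probes with a symbol, 16363 were named through the RefSeq gene table (GRCm38.p6). Alternatives were scaling of the raw signals by quantiles, by the median and by the 75th percentile, centring of each probe set, other detection rules and other size limits. The planned comparison of protein sequences was not run and proteins are not analysed here. Some list genes that meet the naming rule are not reported here. Calculations were made in Python 3.11.15 with pandas 2.3.3, numpy 2.4.6 and, for figures, matplotlib 3.10.9. The call rule for B16-RIIL against B16, the sorting of probes into sets and the quantile normalization were checked on simulated arrays with known answers. The other counts were not.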

Additional observations from a re-analysis of the deposited data

How the results depend on the processing

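Of 104 values recomputed for the counts and medians of the 10 genes, 71 stayed within 1.5 times the count or 0.1 log2 units of the median, and none of the calls turned its direction. The counts above B16, 1, 2 and 2 on B16-RI, B16-RII and B16-RIIL in the main setting, stayed within 1.5 times. The 4 probes below B16 on B16-RI became 2 with detection on every array and 0 at a 4-fold limit. The 1 below on B16-RII became 2 after quantile normalization, 75th percentile scaling, set centring or a 1.5-fold limit, and 0 with an S/N of at least 5 or detection on every array. The 1 below on B16-RIIL became 2 after quantile normalization, 3 after 75th percentile scaling or at a 1.5-fold limit, and 0 with an S/N of at least 5, detection on every array or a 4-fold limit. The 4 probes of B16-RII above B16-RI became 1 after quantile normalization, 75th percentile scaling and set centring, and the 0 of B16-RIIL above B16-RII became 1 under quantile normalization, median scaling, 75th percentile scaling and set centring. No probe was lower at each place in the order of the lines as deposited, against 2 after quantile normalization, 2 after 75th percentile scaling and 1 after set centring. The median difference from B16 was -0.37 on B16-RI after quantile normalization, -0.26 after 75th percentile scaling and -0.24 without a detection filter. It was -0.42 on B16-RII after quantile normalization, -0.25 after 75th percentile scaling and -0.29 after set centring, against a positive 0.14 as deposited. On B16-RIIL it was -0.28, -0.21 and -0.14 under the same 3 scalings, and 0.02 after median scaling. Of the 36 differences of single probes from B16, 8 changed sign under at least 1 of the 4 scalings, none of them a called value. Of 108 recomputed medians of the related lists, 24 stayed within 0.1 log2 units. Seen from B16, the probe set without Adm and Ero1l had medians of -0.15, -0.16 and -0.27 on B16-RI, B16-RII and B16-RIIL after quantile normalization. After 75th percentile scaling they were -0.07, -0.10 and -0.24. The cause of the changes between settings was not tested. No paired analysis was possible because the analysis used the 1 array per line that matches a sample of the labels, and nothing in the labels pairs the lines. For the same reason no array was left out. Egln3, P4ha1, Car9 on B16 and B16-RI and the dimmer Bnip3l probe on B16 were dim, and the error of such values and of the folds that rest on them cannot be estimated from 1 array per line.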

Other observations

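The 5 genes whose differences from B16 lay nearest to those of Car9 were Clu, Ckm, Batf, Gsdmd and Sparcl1, by the Euclidean distance over the 3 passaged lines among 7134 genes detected on all 4 arrays. Clu, the secreted chaperone clusterin, was nearest at a distance of 0.66 log2 units, with signals of 32.7 (B16), 54.3 (B16-RI), 122 (B16-RII) and 270.1 (B16-RIIL). Like Car9 it was brighter on both second-round lines than on B16 and B16-RI, and brightest on the lung line. Ckm, the creatine kinase of muscle, had signals of 2.37, 6.06, 14.2 and 13.03 at a distance of 1.23. The transcription factor Batf (1.27), the pore-forming protein Gsdmd (1.28) and the matrix protein Sparcl1 (1.30) followed, and Batf had signals of 2.88, 4.80, 10.8 and 12.99. The ranking rests on 3 differences that share the B16 array, and all of these genes but Sparcl1 are in the other probe set than Car9. With set-centred differences, an alternative chosen after seeing the data, 3 of the 5 stayed among the nearest, Clu again the first at 0.93, and Batf and Gsdmd did not.

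Among the glycolytic hypoxia targets the gatekeeper kinase Pdk1, which turns pyruvate away from the mitochondria, had signals of 55.4 (B16), 29.8 (B16-RI), 75.7 (B16-RII) and 28.5 (B16-RIIL). Like Bnip3 it was lower on B16-RI and B16-RIIL than on B16 and B16-RII, and it was singled out after its values were seen. Its log2 differences from B16 of -0.90, 0.45 and -0.96 were not called as deposited, while those of B16-RI and B16-RIIL passed the limit after quantile normalization (-1.16 and -1.28) and 75th percentile scaling (-1.03 and -1.19).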
